A study of Saccharomyces cerevisiae with 12 samples.

Results

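SIP18, GRE1, HSP12 and STF2 encode small, very hydrophilic proteins that yeast makes under osmotic, heat or starvation stress and that have been tied to survival of drying. The 4 genes were chosen by name, and each had 1 probe set on the array, so no choice between probe sets was needed. They are 4 of the 5400 genes that were tested, out of 5656 genes with a probe set of their own. SIP18 and GRE1 had already stood out in earlier results of these data, as genes lower at 12 °C than at 30 °C under carbon limitation, so the values of that comparison are given here as a description and without a test.

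The arrays were Affymetrix GeneChips, hybridised with labelled polyA RNA from the haploid laboratory yeast CEN.PK113-7D (MATa). Nitrogen limited growth in 2 groups, one grown at 12 °C and one at 30 °C, and carbon limited it in another 2 at the same temperatures, with 3 arrays per group and 1 culture per array. All 12 cultures were anaerobic chemostats, in which fresh medium enters and culture leaves at one rate, held at pH 5.0 and at a dilution rate of 0.03 per hour. The growth rate was therefore the same in every group, and the study asked what temperature does to transcripts once growth rate is held constant, and whether the answer depends on the limiting nutrient. A single strain in steady state was sampled. Each array holds RNA of a whole culture, so fewer cells with a transcript and less of it per cell cannot be told apart. All arrays were brought to one mean before deposit, so a difference in total mRNA per cell between groups would not show.

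Hydrophilins are proteins rich in glycine and in hydrophilic residues, largely unfolded in water, that are thought to protect other proteins and membranes when water is lost. In yeast, many genes of this kind are activated by the stress factors Msn2 and Msn4 and by the kinase Hog1 of the osmotic stress pathway, and are held down by protein kinase A when sugar is plentiful. Sip18 is a hydrophilin that binds phospholipids, and Gre1 is its paralog. Hsp12 is a small heat shock protein that associates with the plasma membrane, and Stf2 was first described as a factor that stabilises the inhibitor complex of the mitochondrial ATP synthase.

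Signal medians per array lay between 41.2 and 51.4, and 22.3% to 26.8% of probe sets were at or under 12 signal units, the level to which lower signals were raised before log2 was taken. All 7 markers of a cells were above this floor on all arrays, with summed signals of 7712 to 15465 (nitrogen limitation, 12 °C), 7963 to 12113 (nitrogen, 30 °C), 8841 to 11607 (carbon, 12 °C) and 10168 to 12125 (carbon, 30 °C). The 4 markers of alpha cells summed to 2387 to 3395, 361 to 517, 1413 to 1880 and 360 to 540 in the same groups, with MF(ALPHA)2 at or under the floor on 6 arrays and the others above it on all 12. The alpha marker sums were thus higher at 12 °C than at 30 °C, and at 12 °C higher under nitrogen than under carbon limitation. At 30 °C their ranges overlapped between the limitations. MF(ALPHA)1 read 164 to 2630 over the 12 arrays and STE3 read 30.8 to 85.7. Any bearing of these markers on the 4 genes was not tested. For the actin control, 3′ over 5′ signal was 1.31 to 1.75 (nitrogen, 12 °C), 1.69 to 1.90 (nitrogen, 30 °C), 1.12 to 1.87 (carbon, 12 °C) and 1.70 to 1.91 (carbon, 30 °C), so it was lower on some arrays at 12 °C. For the second such control, YER148W, it was 2.08 to 3.97 over all 12 arrays. The part of these ratios in the temperature comparisons was not tested.

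SIP18 (YMR175W) was high in a single group. Its signal was 20.6, 36.7 and 55.7 in nitrogen-limited cultures at 12 °C and 27.5, 33.7 and 31.4 in nitrogen-limited cultures at 30 °C. It was 46.1, 38.5 and 42.9 in carbon-limited cultures at 12 °C, against 600.2, 509.4 and 612.8 in carbon-limited cultures at 30 °C. The lowest of the 3 arrays from carbon limitation at 30 °C was 9.15-fold above the highest of the other 9 arrays, and all 12 lay above the floor.

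GRE1 (YPL223C), the paralog of SIP18, had the same pattern at lower signals. It read 15.4, 16.3 and 15.9 in nitrogen-limited cultures at 12 °C and 24.7, 22.8 and 17.3 in nitrogen-limited cultures at 30 °C. It read 13, 15.1 and 9.4 in carbon-limited cultures at 12 °C, against 246.4, 195.4 and 266.9 in carbon-limited cultures at 30 °C. The lowest array of that group was 7.91-fold above the highest other array, and 9.4 was the only value of the 4 genes at or under the floor.

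HSP12 (YFL014W) was high on every array. Its signal was 2410, 3268 and 2785 in nitrogen-limited cultures at 12 °C and 2005, 1957 and 2462 in nitrogen-limited cultures at 30 °C. It was 2557, 2988 and 2306 in carbon-limited cultures at 12 °C and 2501, 2544 and 3092 in carbon-limited cultures at 30 °C. The groups overlapped, except that nitrogen-limited cultures at 30 °C all lay under carbon-limited cultures at 30 °C. The highest signal of any probe set was 5266 to 10972 per array. These maxima do not show whether high signals were compressed, which was not tested.

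STF2 (YGR008C) was also high throughout. It read 1152, 1619 and 1431 in nitrogen-limited cultures at 12 °C and 1016, 1044 and 1290 in nitrogen-limited cultures at 30 °C. In carbon-limited cultures it read 1420, 2237 and 1908 at 12 °C, against 1107, 1298 and 1265 at 30 °C. The groups at 12 °C and 30 °C overlapped under nitrogen limitation and did not overlap under carbon limitation.

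**Figure D1:**
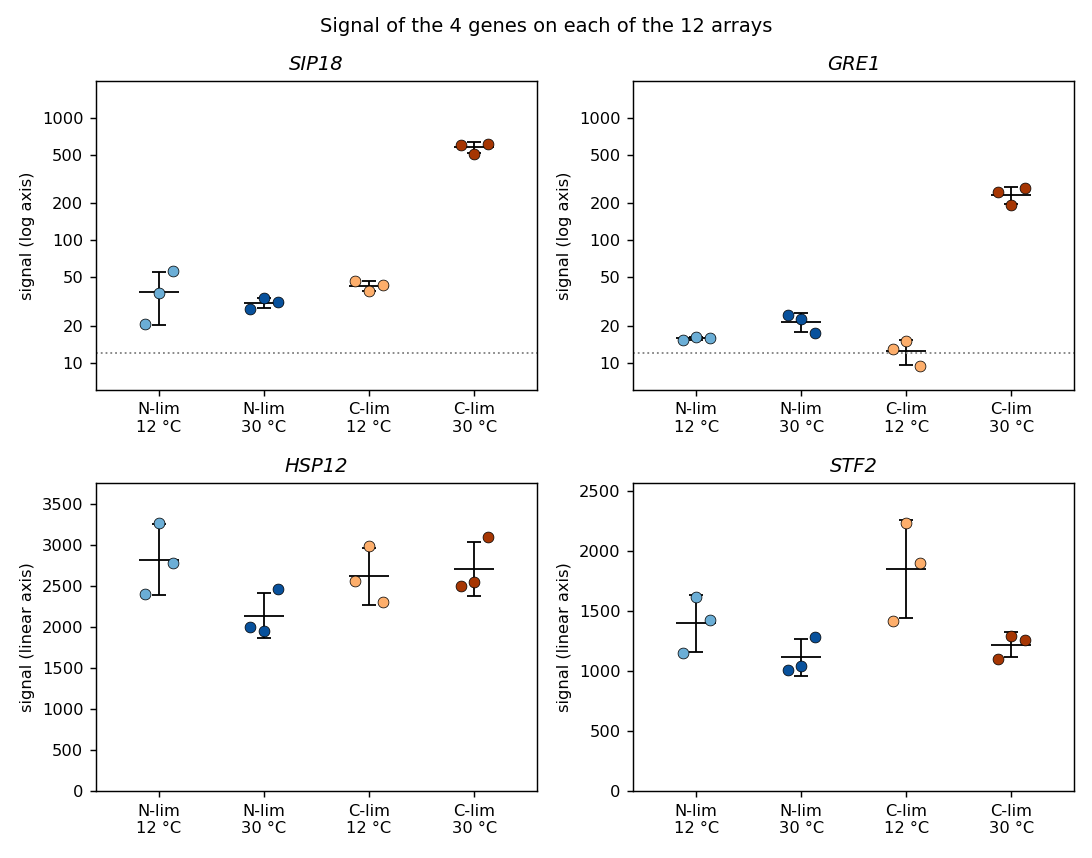
Signal of SIP18, GRE1, HSP12 and STF2 on each of the 12 arrays. Points are arrays, horizontal bars are group means and whiskers are the SD (n = 3), and the dotted line is the floor of 12. SIP18 and GRE1 are on log axes and stand above 190 in carbon-limited cultures at 30 °C and under 60 on all other arrays. HSP12 and STF2 are on linear axes from 0, and most of their groups overlap.

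The 4 genes fell into 2 pairs by how far they moved. From the lowest to the highest array, SIP18 spanned 29.7-fold and GRE1 22.2-fold, and the median gene spanned 2.52-fold. SIP18 and GRE1 spanned more than 99.6% and 99.3% of the tested genes, a description of genes known beforehand to differ. STF2 spanned 2.20-fold, more than 34.5% of genes, and HSP12 spanned 1.67-fold, more than 7.19% of genes. HSP12 was thus among the less variable transcripts in this study. Replicate arrays of GRE1, HSP12 and STF2 agreed within a pooled SD of 0.20, 0.19 and 0.24 on the log2 scale, against a median of 0.27 over all genes. The pooled SD of SIP18 was 0.38, with an SD of 0.72 in nitrogen limitation at 12 °C and of 0.13 to 0.15 in the other groups. That of GRE1 was narrowed by the floor, to which its array at 9.4 in carbon limitation at 12 °C had been raised.

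Under carbon limitation, SIP18 averaged 42.5 ± 3.82 at 12 °C and 574 ± 56.4 at 30 °C (SD, n = 3 each), a difference of -3.75 ± 0.28 on the log2 scale (SE), or 13.5-fold. GRE1 averaged 12.5 ± 2.88 at 12 °C and 236 ± 36.8 at 30 °C, a difference of -4.14 ± 0.20 or 17.6-fold. The GRE1 value is understated, since 1 array at 12 °C was raised to the floor, and with a floor of 50 it shrinks to -2.23. HSP12 differed by -0.05 ± 0.16 (2617 ± 345 at 12 °C and 2712 ± 329 at 30 °C). STF2 differed the other way, by 0.58 ± 0.18, with 1855 ± 411 at 12 °C and 1223 ± 102 at 30 °C. These values were known when the genes were chosen and were not tested. Over all genes, 25.7% passed the limma test in this comparison, 12.6% lower and 13.1% higher at 12 °C, and the 2 groups did not overlap for 42.7% of genes.

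Under nitrogen limitation, none of the 4 genes passed the test for temperature, where 38.2% of the 5400 genes did (limma, adjusted p under 0.05). SIP18 averaged 37.7 ± 17.6 at 12 °C and 30.9 ± 3.13 at 30 °C (SD, n = 3 each). The log2 difference was 0.18 ± 0.28 (SE), with a 95% confidence interval from -0.42 to 0.77 and a limma adjusted p of 0.648. A drop of the size seen under carbon limitation lies outside this interval. Without replicate 3 at 12 °C the difference was -0.16, so its sign rests on 1 array.

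GRE1 averaged 15.9 ± 0.451 at 12 °C and 21.6 ± 3.84 at 30 °C, and the 3 arrays at 12 °C lay below the 3 at 30 °C, as arrays of the 2 groups did not overlap for 48.9% of genes. The log2 difference was -0.43 ± 0.20 (95% confidence interval -0.86 to -0.00085, limma adjusted p = 0.104), so the direction was that seen under carbon limitation and the size was small. HSP12 was 1.31-fold higher at 12 °C, with 2821 ± 430 against 2141 ± 278 at 30 °C (log2 0.39 ± 0.16 SE, interval 0.06 to 0.73, limma adjusted p = 0.0616). STF2 was 1.25-fold higher, with 1401 ± 235 at 12 °C and 1116 ± 151 at 30 °C (log2 0.32 ± 0.18 SE, interval -0.06 to 0.71, limma adjusted p = 0.173). The median change of all genes here was -0.10, and with median scaling of the arrays it was 0.10. With that scaling HSP12 and STF2 passed, at log2 changes of 0.61 and 0.54. HSP12 also passed without replicate 1 at 12 °C (0.50, adjusted p = 0.0311) or without replicate 3 at 30 °C (0.50, adjusted p = 0.0438).

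The effect of temperature on SIP18 and GRE1 differed between the limitations. The difference of temperature effects, nitrogen minus carbon limitation, was 3.93 ± 0.40 for SIP18 (SE, limma adjusted p = 1.27e-05) and 3.71 ± 0.29 for GRE1 (limma adjusted p = 5.70e-07). These were the third and the fourth highest differences among 5400 genes, of which 2.91% passed in this direction. This comparison contains the carbon-limited arrays on which both genes had been noted, so it is not independent of that choice. For HSP12 the difference was 0.45 ± 0.23 (95% confidence interval -0.03 to 0.93, adjusted p = 0.25) and for STF2 it was -0.26 ± 0.26 (interval -0.80 to 0.29, adjusted p = 0.588). In this comparison 7.44% of all genes passed in either direction, and 4.54% passed with a negative difference.

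At 30 °C, 2 of the 4 genes, SIP18 and GRE1, were lower in nitrogen-limited than in carbon-limited cultures, where 12.6% of all genes were lower and 26.9% passed in either direction. SIP18 fell by 4.22 on the log2 scale, with 30.9 ± 3.13 under nitrogen and 574 ± 56.4 under carbon limitation (18.6-fold, SE 0.28, limma adjusted p = 2.67e-08). GRE1 fell by 3.46, with 21.6 ± 3.84 under nitrogen and 236 ± 36.8 under carbon limitation (11-fold, SE 0.20, limma adjusted p = 6.08e-09). Counted from the largest fall they were the fourth and the sixth of 5400 genes. The carbon-limited arrays at 30 °C also enter the temperature comparison above, so these results share 3 arrays with it. What they add is that nitrogen-limited cultures at 30 °C were low as well.

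HSP12 at 30 °C was 1.27-fold lower under nitrogen limitation (log2 -0.34 ± 0.16 SE, 95% confidence interval -0.68 to -0.0036). Its limma adjusted p was 0.123 and the arrays did not overlap, as was the case for 50.9% of genes. STF2 differed by -0.14 ± 0.18 at 30 °C (interval -0.52 to 0.25, limma adjusted p = 0.614), with overlapping arrays. HSP12 and STF2 therefore did not show the gap of SIP18 and GRE1 between the limitations, and differences of that size lie outside their intervals.

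At 12 °C, none of the 4 genes passed between nitrogen and carbon limitation, where 5.67% of genes did, 1.81% higher and 3.85% lower under nitrogen limitation. SIP18 differed by -0.28 ± 0.28 on the log2 scale (SE, 95% confidence interval -0.88 to 0.31, limma adjusted p = 0.59). Its sign turned without replicate 1 of nitrogen limitation, to 0.093. GRE1 differed by 0.25 ± 0.20 (interval -0.17 to 0.68, limma adjusted p = 0.485). All 3 GRE1 arrays of nitrogen limitation lay just above those of carbon limitation, near the floor, and for 21.1% of genes these groups did not overlap. HSP12 differed by 0.11 ± 0.16 (interval -0.23 to 0.44, adjusted p = 0.748) and STF2 by -0.39 ± 0.18 (interval -0.78 to -0.0096, adjusted p = 0.204).

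**Figure D2:**
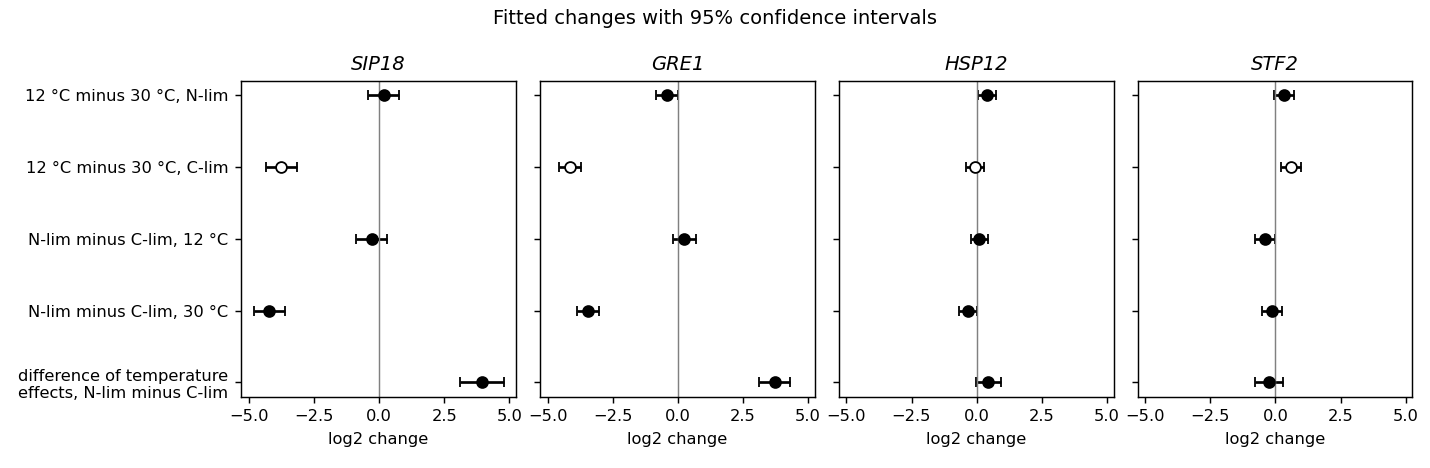
Fitted log2 changes (points) with 95% confidence intervals (whiskers) of the 4 genes, in rows for temperature under each limitation, limitation at each temperature, and the difference of temperature effects. Open points mark the comparison that was known when the genes were chosen and was not tested. SIP18 and GRE1 lie beyond 3 in size in each comparison that holds carbon limitation at 30 °C, and all other points lie between -0.5 and 0.6.

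The order of the groups followed from these values. For SIP18 carbon limitation at 30 °C came first, and no pair of the other 3 groups passed. Carbon limitation at 12 °C exceeded nitrogen limitation at 30 °C by 0.46 ± 0.28 (log2, SE, limma adjusted p = 0.197). The arrays of these 2 groups did not overlap, as was the case for 53.5% of all genes, and the arrays of nitrogen limitation at 12 °C spanned both. For GRE1 the order below carbon limitation at 30 °C was nitrogen at 30 °C, nitrogen at 12 °C and carbon at 12 °C. Neighbours in this order did not pass, and the ends of it did: carbon limitation at 12 °C lay 0.68 ± 0.20 under nitrogen limitation at 30 °C (limma adjusted p = 0.0124), a comparison in which 43.2% of all genes passed. For HSP12 the order was nitrogen at 12 °C, carbon at 30 °C, carbon at 12 °C and nitrogen at 30 °C. No pair of HSP12 groups that was tested passed, so this order is not resolved. For STF2 the order was carbon at 12 °C, nitrogen at 12 °C, carbon at 30 °C and nitrogen at 30 °C. Both groups at 12 °C thus came before both at 30 °C, and the neighbours that were tested did not pass. STF2 in carbon limitation at 12 °C exceeded nitrogen limitation at 30 °C by 0.72 ± 0.18 (limma adjusted p = 0.0048).

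Across the 12 arrays, the log2 signals of SIP18 and GRE1 correlated at Pearson r = 0.953. Since 3 arrays of 1 group stood far above the rest, this r describes that gap. Deviations from the group means correlated at 0.071 between SIP18 and GRE1 and at 0.69 between HSP12 and STF2, over 12 arrays that share only array and culture. Within each group at 12 °C, the highest STF2 and the highest HSP12 value came from the same array, replicate 2.

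The genes whose log2 signals were most like SIP18 over the 12 arrays were YIG1 (r = 0.971), JHD1 (0.970), YAR068W (0.969), SPG1 (0.966) and HXT14 (0.961). For GRE1 they were SHH3 (0.984), JHD1 (0.981), SPG1 (0.980), BAP3 (0.978) and YAR068W (0.976). SPG1, named for stationary phase, read 8.30 ± 1.93 (nitrogen, 12 °C), 13.7 ± 1.87 (nitrogen, 30 °C), 10.8 ± 3.15 (carbon, 12 °C) and 57.2 ± 10.4 (carbon, 30 °C; SD, n = 3 each). SHH3, a homolog of a succinate dehydrogenase subunit, read 43.7 ± 9.35, 49.5 ± 1.08, 30.9 ± 2.05 and 268.5 ± 16.2 in the same groups. JHD1, a histone demethylase, never exceeded 16.2 and HXT14, of the hexose transporter family, never exceeded 24.1. YIG1 and HXT14 were above the floor only on the 3 arrays of carbon limitation at 30 °C, and JHD1 and YAR068W on those and 1 other. These 4 genes passed the filter on dim genes only through that group, so their likeness to SIP18 and GRE1 was fixed by it. For HSP12 the most alike were MHF2 (0.912), RPB9 (0.906), RPL24B (0.902), SSF1 (0.887) and TIM10 (0.880). For STF2 they were RAD6 (0.933), EMC4 (0.933), BMS1 (0.904), LOC1 (0.903) and URA3 (0.895). These r values are the highest among 5400 genes, for 2 genes that spanned only 1.67-fold (HSP12) and 2.20-fold (STF2) over the arrays. The part of scatter between replicate arrays in them was not tested.

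A count made after the values were seen shows how common the SIP18 pattern was. In 352 of 5400 genes (6.52%) all 3 arrays from carbon limitation at 30 °C lay above the other 9, by at least 2-fold in 27 genes and by at least 4-fold in 8. Some of these genes were above the floor on fewer than 3 of the other 9 arrays. They passed the filter on dim genes only through this group, which favoured them in the count without setting the size of the gap. Without them 343, 25 and 7 genes remain, and the one lost from the 8 is YIG1. Besides SIP18 and GRE1 these 8 were RGI2, a gene of respiratory growth, the amino acid permeases BAP3 and GNP1, the succinate dehydrogenase homolog SHH3, the regulator of sterol uptake SUT1, and YIG1. RGI2 had the widest gap, with 1173 on the lowest array of carbon limitation at 30 °C and 72.7 on the highest other array. For nitrogen limitation at 30 °C, 46 genes stood at least 2-fold above all other arrays, and 43 without those that passed the filter only through that group. For nitrogen or carbon limitation at 12 °C, 0 genes did.

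**Figure D3:**
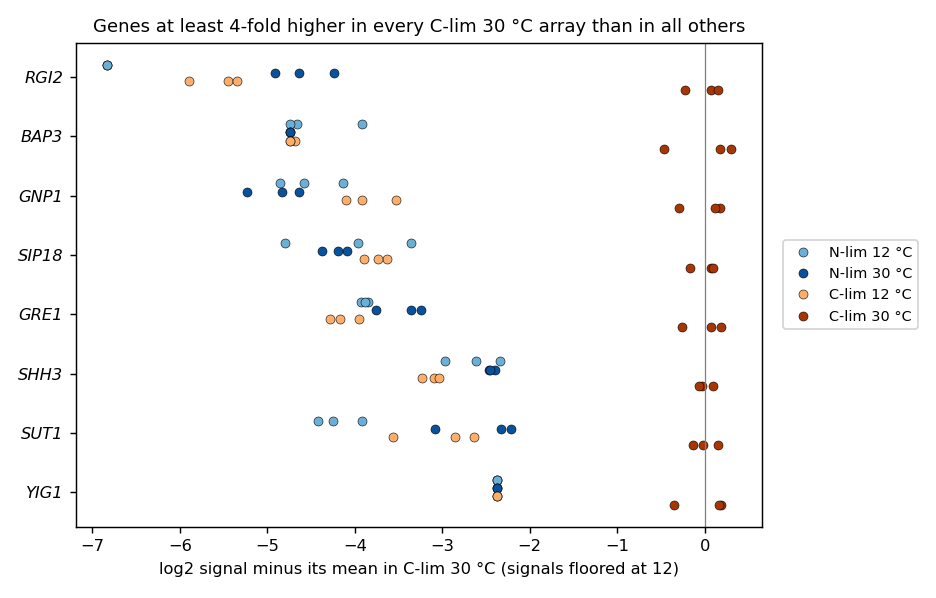
Log2 signals of the 8 genes whose every array from carbon limitation at 30 °C was at least 4-fold above all other arrays, each drawn relative to its own mean in that group. Each point is 1 array, coloured by group, and signals were floored at 12. The arrays of the other groups lie 2 or more log2 units to the left, and those of YIG1 outside this group all lie at the floor.

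Other hydrophilin-type genes showed other patterns. Their list and the gene lists below were chosen with earlier results of these data known. Of 5 such genes, NOP6 rose and ROQ1 and TMA10 fell at 12 °C under each limitation, and YNL190W and CPP1 did not pass in either. These are 3 of 5 called under each, where 38.2% of all genes were called under nitrogen and 25.7% under carbon limitation. The median change over the 5 was -0.29 under nitrogen and -0.30 under carbon limitation, against -0.10 and 0.03 over all genes. ROQ1, a hydrophilin that also acts on the ubiquitin ligase Ubr1, read 17.3, 43.0 and 40.3 in nitrogen-limited cultures at 12 °C, against 269.0, 291.8 and 301.9 at 30 °C. Under carbon limitation it read 19.4, 19.0 and 23.1 at 12 °C, against 195.8, 150.2 and 121.9 at 30 °C. The log2 changes were -3.21 ± 0.30 under nitrogen and -2.91 ± 0.30 under carbon limitation (SE, limma adjusted p = 7.75e-07 and 3.41e-06), so it was high at 30 °C whichever nutrient was limiting. At 30 °C it was 1.88-fold higher in nitrogen-limited than in carbon-limited cultures (limma adjusted p = 0.0327), where SIP18 and GRE1 were lower.

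TMA10, the paralog of STF2, fell at 12 °C under both limitations. It read 51.5, 105.8 and 98.0 in nitrogen-limited cultures at 12 °C, against 680.0, 753.4 and 966.5 at 30 °C, a log2 change of -3.29 ± 0.24 (SE, limma adjusted p = 9.19e-08). Under carbon limitation it read 375.8, 248.5 and 325.5 at 12 °C, against 1023, 1090 and 915.7 at 30 °C, a change of -1.69 ± 0.24 (limma adjusted p = 0.000117). The effect of temperature on TMA10 was larger under nitrogen limitation, by -1.60 ± 0.35 (limma adjusted p = 0.00988), which is the opposite order to SIP18 and GRE1. The difference between STF2 and TMA10 was not tested.

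NOP6, an RNA-binding hydrophilin of the nucleolus, rose by 0.91 ± 0.26 under nitrogen limitation (140 ± 39.7 at 12 °C and 73.0 ± 15.2 at 30 °C, SD, n = 3 each; limma adjusted p = 0.0123). Under carbon limitation it rose by 1.01 ± 0.26 (162 ± 42.3 at 12 °C and 79.4 ± 13.8 at 30 °C, limma adjusted p = 0.00985). The call under nitrogen limitation was lost without replicate 2 at 12 °C or without replicate 2 at 30 °C. YNL190W, a cell wall hydrophilin, differed by 0.24 ± 0.17 under nitrogen and -0.27 ± 0.17 under carbon limitation, and CPP1 by -0.29 ± 0.18 and -0.30 ± 0.18.

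INH1 and STF1 are inhibitors of the mitochondrial ATP synthase with which Stf2 was first described. Both were lower under nitrogen than under carbon limitation at each temperature. Of all genes, 12.6% were lower and 26.9% called in this comparison at 30 °C, and 3.85% were lower and 5.67% called at 12 °C. INH1 averaged 135 ± 13.3 in nitrogen-limited and 395 ± 82.5 in carbon-limited cultures at 30 °C (SD, n = 3 each), and STF1 averaged 671 ± 32.6 and 1344 ± 185. The log2 changes were -1.53 ± 0.26 for INH1 and -0.99 ± 0.16 for STF1 (SE, limma adjusted p = 0.000572 and 0.000346). At 12 °C INH1 averaged 116 ± 36.8 under nitrogen and 257 ± 71.0 under carbon limitation, and STF1 averaged 750 ± 112 and 1217 ± 170, changes of -1.17 ± 0.26 and -0.70 ± 0.16 (limma adjusted p = 0.0219 and 0.0229). Calls for limitation at 12 °C depended on the setting, and with only the 6 arrays at 12 °C, 4 of 5400 genes passed. How stable the INH1 and STF1 calls at 12 °C were is not given here. Neither gene passed for temperature under either limitation. STF2 itself passed for limitation at neither temperature.

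**Figure D4:**
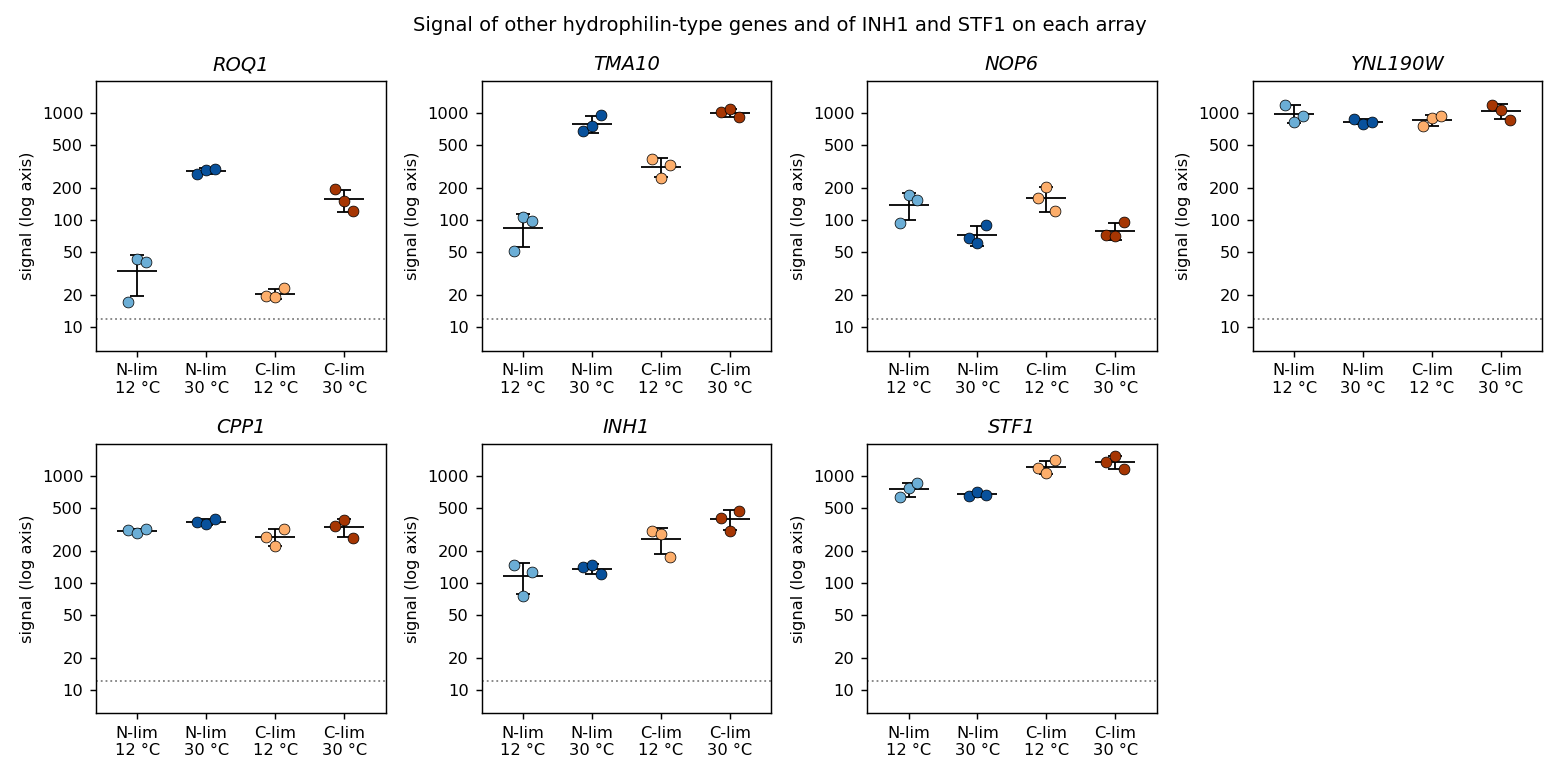
Signal of the 5 other hydrophilin-type genes and of INH1 and STF1 on each array, on log axes. Points are arrays, horizontal bars are group means, whiskers are the SD (n = 3) and the dotted line is the floor of 12. ROQ1 and TMA10 are high in both groups at 30 °C, NOP6 is higher in both groups at 12 °C, and INH1 and STF1 are lower in both nitrogen-limited groups.

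**Figure D5:**
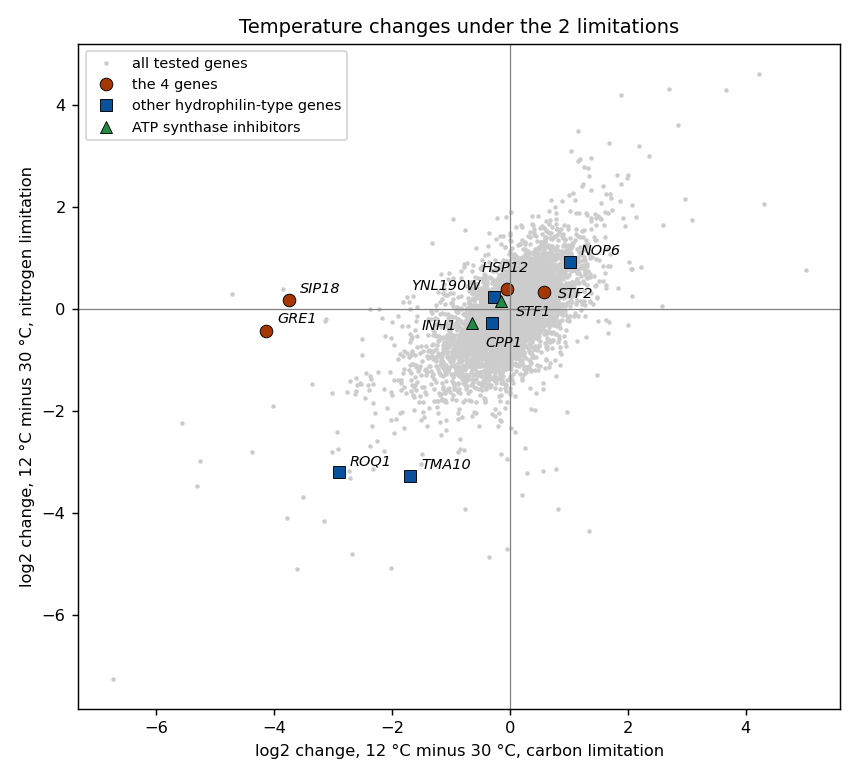
Log2 changes of 5400 genes at 12 °C against 30 °C under carbon limitation (horizontal axis) and under nitrogen limitation (vertical axis), which share no arrays. Grey points are all tested genes. SIP18 and GRE1 lie far to the left near the horizontal zero line, ROQ1 and TMA10 lie low on both axes, and HSP12 and STF2 lie in the dense centre.

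Trehalose, a sugar that protects dried cells, showed another pattern. Of 8 genes of its synthesis and breakdown, 6 fell and 2 did not pass at 12 °C under nitrogen limitation, and 1 rose, 2 fell and 5 did not pass under carbon limitation. Over all genes 22.3% were lower and 38.2% called under nitrogen limitation, and 12.6% were lower and 25.7% called under carbon limitation, a share from which 3 of 8 is not far. The median changes were -1.18 and -0.36, against -0.10 and 0.03 over all genes. Under nitrogen limitation the largest falls were those of TSL1, a subunit of trehalose synthase, at -1.96, the trehalases NTH2 and ATH1, at -1.79 and -1.66, and NTH1, another trehalase, at -1.25. Under carbon limitation ATH1 fell by 1.19, NTH2 fell by 1.10 and TPS3, another synthase subunit, rose by 0.74. The TPS3 call was lost without replicate 1 at 12 °C or without any 1 of the replicates at 30 °C, and the ATH1 call under nitrogen limitation was lost with a floor of 50. At 30 °C, 4 of the 8 were higher and 1 was lower in nitrogen-limited than in carbon-limited cultures, where 14.3% of all genes were higher and 12.6% lower.

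Among 31 other genes of osmotic and stationary phase stress, 18 fell, 1 rose and 12 did not pass at 12 °C under nitrogen limitation, and 20 fell, 2 rose and 9 did not pass under carbon limitation. Of all genes, 22.3% were lower and 15.9% higher under nitrogen limitation, and 12.6% were lower and 13.1% higher under carbon limitation. The medians were -0.67 under both, against -0.10 and 0.03 over all genes. The 4 largest changes under each limitation were those of the heat shock genes HSP30 and HSP26, the stationary phase gene SPG4 and the cell wall gene SPI1. SPG4 changed by -3.70 under nitrogen and -3.50 under carbon limitation, and SPI1 by -2.69 and -2.37 (limma adjusted p = 3.38e-07 and 1.88e-06). HSP30 changed by -2.98 under nitrogen and -5.26 under carbon limitation, and HSP26 by -2.80 and -4.38. The difference of temperature effects, nitrogen minus carbon limitation, was 2.29 for HSP30 and 1.58 for HSP26 (limma adjusted p = 0.0101 and 0.00636). Most genes of this list were thus lower at 12 °C under each limitation, and SIP18 and GRE1 did not pass under nitrogen limitation. The list was chosen with earlier results of these data known, so its shares are a description. At 30 °C the list was split, with 7 genes higher, 8 lower and 16 not passing in nitrogen-limited against carbon-limited cultures, and all genes were split nearly evenly too, with 14.3% higher and 12.6% lower. GRE2, a reductase that shares its name with GRE1 for induction by osmotic stress and was picked after its values were seen, was among those higher, by 1.77 ± 0.33 (limma adjusted p = 0.00114), and thus opposite to GRE1.

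For the regulators of these stress genes, 21 genes were tested. At 12 °C, 3 rose, 6 fell and 12 did not pass under nitrogen limitation, and 5 rose, 2 fell and 14 did not pass under carbon limitation. These counts are near the shares of all genes called, 38.2% and 25.7%. HSF1, the heat shock factor, changed by -1.53 under nitrogen and -1.13 under carbon limitation (limma adjusted p = 0.000173 and 0.00293). Under nitrogen limitation HOT1, a nuclear partner of Hog1, fell by 1.04, and CYR1, the adenylate cyclase, fell by 0.74 with a call that was lost in 12 of 21 other settings. HOG1 rose by 0.76 under nitrogen and 0.54 under carbon limitation, and the call under carbon limitation was lost without replicate 1 or 3 at 12 °C or replicate 3 at 30 °C. TPK3, a catalytic subunit of protein kinase A, rose by 0.65 under nitrogen and 0.92 under carbon limitation, and the call under nitrogen limitation was lost without replicate 2 at 12 °C or replicate 1 at 30 °C. PBS2, the kinase that activates Hog1, rose by 1.05 under carbon limitation. RIM15, a kinase gene, went opposite ways, with -0.64 under nitrogen (limma adjusted p = 0.038) and 0.82 under carbon limitation (limma adjusted p = 0.0162). The RIM15 call under nitrogen limitation was lost in 9 of 21 other settings and that under carbon limitation without replicate 2 at 30 °C. The difference of its temperature effects was -1.46 (limma adjusted p = 0.0116), a call lost in 0 of 20 settings. At 30 °C, 6 regulators were higher and 1 was lower in nitrogen-limited than in carbon-limited cultures, where 26.9% of all genes were called, 14.3% of all higher and 12.6% lower. These are transcript levels, and the activity of the regulators was not measured.

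The genes next to the 4 on the chromosomes were taken from the R64 gene table for their position, after the values were seen, and 6 of 8 were tested. PAI3, an inhibitor of a vacuolar protease that neighbours SIP18 and is also one of the 31 stress genes, fell at 12 °C under both limitations, with changes of -0.88 under nitrogen (limma adjusted p = 0.00434) and -1.87 under carbon limitation (limma adjusted p = 1.15e-05). Its change at 30 °C, nitrogen against carbon limitation, was -0.83 (limma adjusted p = 0.00901), and its difference of temperature effects was 0.99 (limma adjusted p = 0.0586). FMP40, next to GRE1, was higher under nitrogen than under carbon limitation at 30 °C by 1.16 (limma adjusted p = 0.00475), and MMT2, on the other side of GRE1, differed by 0.40 (limma adjusted p = 0.113). Both fell at 12 °C under nitrogen limitation, FMP40 with a change of -1.29 (limma adjusted p = 0.00156) and MMT2 with one of -0.52 (limma adjusted p = 0.035). IES1, next to HSP12, fell at 12 °C under both limitations, with changes of -0.83 under nitrogen (limma adjusted p = 0.0454) and -1.65 under carbon limitation (limma adjusted p = 0.00108). ECT1 and SEC9, on either side of STF2, differed with temperature under carbon limitation by -0.23 and -0.13 (limma adjusted p = 0.543 and 0.761). Under nitrogen limitation SEC9 fell, with -0.68 (limma adjusted p = 0.0491), and ECT1 differed by -0.47 (limma adjusted p = 0.145). Of all genes, 22.3% were lower and 38.2% called for temperature under nitrogen limitation, and 12.6% were lower and 25.7% called under carbon limitation. Between the limitations at 30 °C, 26.9% of all genes were called. How stable the calls of the neighbours were is not given here.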

How the data were processed

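The authors deposited linear probe set intensities for 12 arrays, and GCOS, Affymetrix's array software, is the tool listed per the submitters' processing notes. Its version, algorithm and target value were not given in the sources used here. The mean after trimming 2% at each end was 150.1 on every array, so arrays had been scaled before deposit. Groups and replicate numbers came from the titles, and each group's 3 arrays came from separate cultures, per the labels. No batch or scan date is given in the sources used here.

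Of 9335 probe sets, 6504 had 1 gene in the platform annotation, 328 had several and 2503 were not listed. Symbols were updated through the R64 gene table. Signals under 12 were raised to 12 and log2 was taken. Where a gene had several probe sets, the brightest on average was taken, and the 256 genes above 12 on fewer than 3 arrays were left out. All 12 arrays entered 1 fit of 4 group means with limma 3.58.1 (lmFit, eBayes with intensity trend) under R 4.3.3, and p values were adjusted by Benjamini-Hochberg over 5400 genes, with a threshold of 0.05. The fit was tested on simulated data. The number of arrays limits the precision, and an exact permutation test of 3 against 3 arrays cannot go below 0.1. Fold changes near the floor are understated.

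The 4 genes and all lists were chosen with earlier results of these data known. Named genes were the 4, the related hydrophilin-type and ATP synthase inhibitor genes, up to 4 genes per other list and temperature comparison with the largest changes among those past the threshold, and the 5 genes most correlated with each of the 4. Outside this rule and after their values were seen, GRE2, the genes high only in carbon limitation at 30 °C and the chromosomal neighbours were named. Alternatives were other floors, no filter, quantile or median scaling, no trend, 6 arrays only, the mean of all probe sets, the replicate block, and each array left out. Positions are not given because no genome build is named for the probe sets.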

Additional observations from a re-analysis of the deposited data

Results flagged for a closer look

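Temperature effects that differed between nitrogen and carbon limitation by the interaction test of limma were those of SIP18 (3.93 on the log2 scale, adjusted p = 1.27e-05) and GRE1 (3.71, adjusted p = 5.70e-07). SIP18 read 20.6 to 55.7 at 12 °C and 27.5 to 33.7 at 30 °C under nitrogen limitation, and 38.5 to 46.1 at 12 °C and 509.4 to 612.8 at 30 °C under carbon limitation. GRE1 read 15.4 to 16.3 at 12 °C and 17.3 to 24.7 at 30 °C under nitrogen limitation, and 9.4 to 15.1 at 12 °C and 195.4 to 266.9 at 30 °C under carbon limitation. Both differences kept their sign and their call in all 20 alternatives run, with values from 3.57 to 4.31 for SIP18 and from 2.23 to 3.94 for GRE1. The carbon-limited arrays had drawn attention to both genes beforehand.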

How the results depend on the processing

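For the 4 genes, 20 log2 changes were recomputed under 20 or 21 alternatives each, 416 values in all. Of these, 406 kept their side of the threshold without turning to the opposite sign or, where untested, stayed within 1 SD. A change of 0 counts as kept here. With a floor of 50, GRE1 fell to 0 for temperature under nitrogen limitation and for limitation at 12 °C, as all its signals there lay under that floor. The replicate numbers did not pair the arrays: of 18 pairs of same-numbered arrays from different groups, 3 correlated above 0.1 in their deviations from group means (-0.20 to 0.18). The 36 pairs of differently numbered arrays from different groups ranged more widely, from -0.28 to 0.39. What such arrays share was not tested, and the replicate block does not cover it. With the replicate block the differences of temperature effects were 3.93 for SIP18 and 3.71 for GRE1, 344 genes passed in that comparison in place of 402, and no call of the 4 genes changed. Under nitrogen limitation the temperature changes of HSP12 and STF2 passed with median scaling, at 0.61 and 0.54 in place of 0.39 and 0.32. HSP12 without 1 array each ranged from 0.28 to 0.50. HSP12 at 30 °C between the limitations passed with quantile normalization, at -0.34 (adjusted p = 0.0471, and up to 0.361 over the alternatives). GRE1 under carbon limitation was -2.23 with a floor of 50. Changes near 0 turned sign: SIP18 with temperature under nitrogen limitation was -0.16 to 0.56 without 1 array each, SIP18 between the limitations at 12 °C was 0.052 with a floor of 50, 0.093 without replicate 1 of nitrogen limitation, and -0.62 to 0.093 without 1 array each, and HSP12 between the limitations at 12 °C was -0.0063 to 0.21 without 1 array each. Without 1 array each, 921 to 1690 genes passed for temperature under carbon limitation in place of 1386, with the lowest count without replicate 1 at 30 °C. For the difference of temperature effects the range was 246 to 480 in place of 402, with 261 and 248 without replicates 1 and 2 of nitrogen limitation at 30 °C and 246 and 249 without replicates 1 and 2 of carbon limitation at 30 °C. For limitation at 12 °C it was 128 to 394 in place of 306, with 128 and 196 without replicate 2 of nitrogen limitation at 12 °C and at 30 °C, 196 and 133 without replicates 2 and 3 of carbon limitation at 12 °C, and 193 and 201 without replicates 1 and 3 of carbon limitation at 30 °C. With only the 6 arrays at 12 °C, 4 genes passed. Scaling moved the split of calls under nitrogen limitation to 1070 higher and 929 lower (quantile) or 1308 and 806 (median), in place of 857 and 1206. For the difference of temperature effects the split was 226 and 221 or 262 and 167, in place of 157 and 245, and for limitation at 12 °C it was 158 and 141 with median scaling, in place of 98 and 208. The causes of these shifts were not tested. Signals of GRE1 outside carbon limitation at 30 °C lay close to the floor, so its order among the other groups is poorly resolved.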
